A study of Mus musculus with 12 samples.

Results

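H19, Igf2 and 8 further imprinted genes of growth control were followed in 2 mouse experiments on cancer-associated muscle loss. The genes were listed by name (H19, Mir675, Igf2, Igf2r, Dlk1, Meg3, Cdkn1c, Grb10, Peg3 and Mest) and the list was selected on earlier results of these data, among them the FPKM difference between LLC and PBS muscle. They are 10 of the 20194 genes in the RNA table, and 12 of the 38244 open-chromatin peaks carry one of their names as nearest gene. Muscle polyA RNA was sequenced from C57BL/6 mice given PBS (3 libraries) or a subcutaneous injection of 500000 Lewis lung cancer (LLC) cells (3 libraries), a syngeneic tumour model of cachexia, with tissue taken after 22 days. Open chromatin was profiled by ATAC-seq in C2C12 myotubes, a single mouse myoblast line of C3H origin differentiated in horse serum, in control medium (3 libraries) or in medium conditioned by C26 cells, a colon carcinoma line (Colon-26), for 24 hours (3 libraries). The muscle, the age of the mice and their sex are not named, the labels call the cultured cells myoblasts although the titles say myotubes, and the tumour differs between the experiments. The labels do not say whether replicate libraries are separate mice or separate cultures, so p-values cover only the spread of these libraries and that spread may be technical.

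Imprinted genes are expressed mainly or only from the copy inherited from one parent, and which copy is active is set by DNA methylation laid down in the germ line. Many of them control growth: Igf2 encodes a fetal growth factor, Igf2r the receptor that removes it, and H19 a non-coding RNA that shares enhancers with Igf2 and is transcribed from the other parental copy. In skeletal muscle H19 is among the long RNAs that stay abundant after birth, it is induced when myoblasts differentiate, and its exonic hairpin is the precursor of miR-675. None of the deposited values separates the parental copies, so every level below is the sum over both.

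The miR-675 hairpin lies within H19, and its sequence shows how small the counted Mir675 window is: the hairpin spans chr7:142577064-142577147 on the minus strand of GRCm38. Sequences are from RefSeq, with both mature arms in capitals in the hairpin and the seed (bases 2 to 8) in capitals in each mature arm.
Mir675 hairpin: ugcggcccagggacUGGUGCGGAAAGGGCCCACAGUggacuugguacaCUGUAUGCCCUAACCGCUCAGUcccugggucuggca
mmu-miR-675-5p: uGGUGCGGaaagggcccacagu
mmu-miR-675-3p: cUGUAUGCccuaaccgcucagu
Among the 1679 mature mouse miRNAs of that table, 0 others carry the seed of the 5p arm and 0 others that of the 3p arm. The library was made from polyA RNA and the row covers the hairpin, so its value counts fragments of the H19 transcript over that window and not the mature miRNA.

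Of the RefSeq promoter windows (250 bases before to 50 after a start), 14 belong to 7 of the members, and 0 of the 14 overlap a peak. The cAMP response element TGACGTCA, which reads the same on both strands, is in 2 of the 14, against 1.79% of 32851 mouse promoters. These windows, of Peg3 and of Meg3, are shown because they are the pair that holds the motif (capitals) and because Peg3 has the strongest member peak nearby. A match in letters is not evidence that a factor binds there. The Peg3 window is chr7:6730370-6730669 on the minus strand and the Meg3 window chr12:109540746-109541045 on the plus strand of GRCm38.
Peg3 promoter: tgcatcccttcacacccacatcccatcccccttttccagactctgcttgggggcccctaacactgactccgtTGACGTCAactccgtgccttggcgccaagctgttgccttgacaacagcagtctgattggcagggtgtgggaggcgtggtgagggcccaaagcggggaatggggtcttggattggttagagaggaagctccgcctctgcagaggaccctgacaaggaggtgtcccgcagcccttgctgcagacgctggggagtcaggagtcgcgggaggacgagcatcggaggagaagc
Meg3 promoter: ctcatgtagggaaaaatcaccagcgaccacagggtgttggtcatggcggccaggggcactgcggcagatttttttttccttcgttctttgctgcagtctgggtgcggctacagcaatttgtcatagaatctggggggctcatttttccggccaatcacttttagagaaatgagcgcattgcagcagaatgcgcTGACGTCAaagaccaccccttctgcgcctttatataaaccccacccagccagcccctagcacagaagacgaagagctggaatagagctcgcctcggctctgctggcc
A GC box (GGGCGG, either strand) is in 7 of the 14 windows, of 4 genes (Grb10, Igf2, Igf2r and Mest), against 35.7% of all promoters. The E-box CAGCTG, bound by myogenic factors, is in 1 of 14, at Mest, against 16.3%. Windows of the same gene can overlap, as at Mest, so the 14 are not all separate promoters.

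The muscle libraries held 17000000 to 20100000 tags and the ATAC libraries 10100000 to 18200000 when rounded, with 2 read ends to a tag. Muscle identity was clear, with 8 skeletal muscle genes summing to between 36195 and 48594 FPKM in each library. Transcripts of other tissues varied widely between libraries within a group. The summed level of 7 neutrophil-precursor genes was 122, 6179 and 11728 FPKM in PBS 1 to 3, and 5858, 10337 and 181 FPKM in LLC 1 to 3. PBS 1 and LLC 3 thus stood apart from the other 4 libraries in marrow-type transcripts, and osteoblast and erythroid genes were likewise lowest in these 2 libraries. Of 6 epidermal genes the sum was 0.515 to 108 FPKM in PBS and 61.0 to 1314 FPKM in LLC, and of 7 tenocyte genes 291 to 428 FPKM in PBS and 39.2 to 256 FPKM in LLC. In bulk muscle, fewer cells of a type and less RNA per cell cannot be told apart. No gene reached an adjusted p of 0.05 in the LLC against PBS comparison: limma called 0 of 12981 genes (0%), with 991 at an unadjusted p under 0.05. In edgeR 0 genes passed and in DESeq2 312 did. The differences in RNA below are therefore levels and log2 differences with their standard errors (SE), given as descriptions.

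H19 and its hairpin window were the most abundant members and stood highest in LLC muscle. H19 (NR_130973, chr7:142575530-142578146, minus strand) measured 109, 67.8 and 71.7 FPKM in PBS 1 to 3 and 137, 165 and 136 FPKM in LLC 1 to 3. All 3 LLC libraries lay above all 3 PBS libraries, and PBS 1 was the highest of the PBS group. The means were 82.99 ± 23.03 FPKM in PBS and 146 ± 16.2 FPKM in LLC (SD, n = 3), a ratio of 1.76, and the log2(FPKM + 1) difference was 0.84 (SE 0.21). Without PBS 1 and LLC 3, the libraries low in marrow-type transcripts, the H19 difference was 1.10.

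The Mir675 window was higher in LLC, as H19 was, and its PBS libraries lay close together. It measured 48.2, 47.4 and 47.3 FPKM in PBS and 108, 95.9 and 98.2 FPKM in LLC. The groups did not overlap, with means of 47.6 ± 0.51 and 101 ± 6.41 FPKM (SD, n = 3), a ratio of 2.11 and a log2 difference of 1.06 (SE 0.10). Only 136 to 149 read ends per PBS library and 276 to 327 per LLC library lay behind these values. The PBS libraries differed by an SD of 1.06% of their mean, against 8.44% for Poisson counting of 140 read ends, so the spread of the PBS libraries alone understates the error of these values. Per length, Mir675 stood at 44.0%, 69.9% and 65.9% of H19 in PBS and at 78.6%, 58.2% and 72.0% in LLC. These shares overlapped between the groups. Reads in the hairpin also belong to the H19 exon, so the Mir675 and H19 rows are not independent.

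Igf2, the fetal insulin-like growth factor and the reciprocally imprinted partner of H19, was a low transcript in both groups. Igf2 (NM_001315489, chr7:142650768-142657496, minus strand) measured 5.31, 5.66 and 4.87 FPKM in PBS and 6.66, 6.73 and 6.06 FPKM in LLC. Every LLC library again lay above every PBS library, by a small step: 5.28 ± 0.396 against 6.49 ± 0.370 FPKM (SD, n = 3), a ratio of 1.23 and a log2 difference of 0.25 (SE 0.11). H19 was 20.6, 12.0 and 14.7 times as high as Igf2 per length in PBS and 20.6, 24.5 and 22.5 times in LLC. By this ratio PBS 1 and LLC 1 were level, and the other 4 libraries kept the order of the groups. Igf2os, an antisense transcript that overlaps promoter windows of Igf2, stayed at or under 0.104 FPKM in every library.

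**Figure D1:**
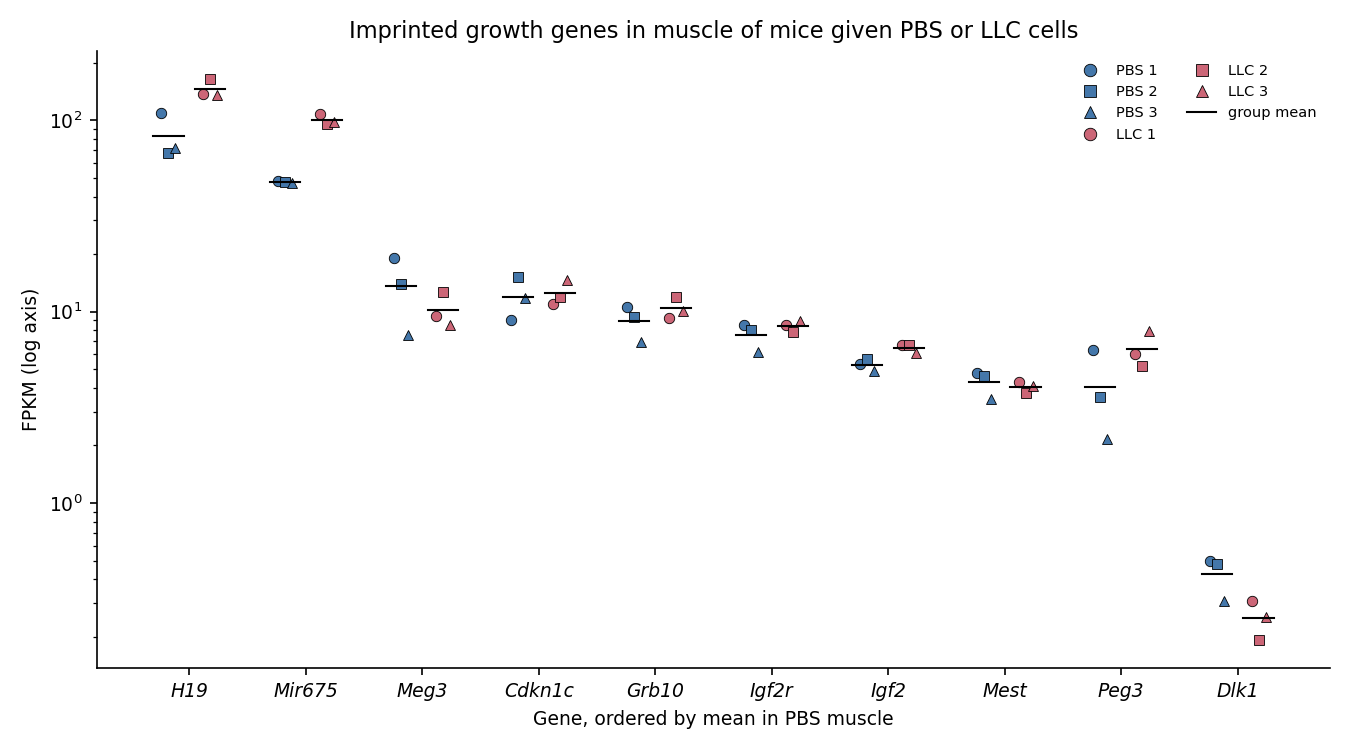
FPKM (log axis) of the 10 imprinted genes in each muscle library, ordered by mean in PBS muscle; points are libraries, shapes are replicate numbers and lines are group means. H19, Mir675 and Igf2 are the genes whose LLC points all lie above the PBS points, and Dlk1 lies under 0.5 FPKM throughout.

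Igf2r, the mannose 6-phosphate receptor that carries IGF2 to lysosomes, was close to level between the groups. It measured 8.53, 8.01 and 6.18 FPKM in PBS and 8.502, 7.82 and 8.94 FPKM in LLC, with overlapping groups and a log2 difference of 0.14 (SE 0.14). Airn, the non-coding RNA that overlaps Igf2r on the other strand and silences its paternal copy, measured 3.67, 2.33 and 1.63 FPKM in PBS and 3.95, 1.82 and 2.49 FPKM in LLC. Since reads of both strands were counted, any exonic overlap between this pair cannot be separated.

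The growth inhibitors Cdkn1c and Grb10 showed overlapping groups. Cdkn1c, the p57 inhibitor of cyclin-dependent kinases that holds myoblasts out of the cell cycle, measured 9.02, 15.1 and 11.8 FPKM in PBS and 10.9, 12.0 and 14.6 FPKM in LLC. Its log2 difference was 0.07 (SE 0.21) and became -0.21 without PBS 1 and LLC 3. Grb10, an adaptor that dampens insulin and IGF1 receptor signalling, measured 10.6, 9.44 and 6.95 FPKM in PBS and 9.30, 11.9 and 10.1 FPKM in LLC. The Grb10 difference was 0.21 (SE 0.18), and the lowest library was PBS 3.

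In the Dlk1-Meg3 domain on chromosome 12, Meg3, Rian, Mirg, Dlk1 and Rtl1 had lower means in LLC. Mirg averaged 0.71 FPKM in PBS and 0.442 FPKM in LLC, with overlapping groups. Rtl1 averaged 0.0207 and 0.00133 FPKM on 0 to 6 read ends per library, all LLC libraries below. Dio3, a deiodinase gene at the far end of the domain, had the higher mean in LLC (0.233 FPKM in PBS against 0.309 FPKM in LLC, overlapping). Meg3, the maternally expressed non-coding RNA of the domain, measured 19.2, 13.9 and 7.56 FPKM in PBS and 9.49, 12.7 and 8.53 FPKM in LLC. The PBS libraries spanned all 3 LLC values, and the log2 difference of -0.31 (SE 0.34) became 0.08 without PBS 1 and LLC 3. Rian, a downstream RNA of the same maternal transcription unit that hosts small nucleolar RNAs, measured 11.6, 9.82 and 4.59 FPKM in PBS and 5.96, 6.83 and 4.89 FPKM in LLC. Rian stood at 60.4%, 70.5% and 60.7% of Meg3 in PBS and 62.7%, 53.9% and 57.4% in LLC, and these shares overlapped between the groups. Dlk1, a paternally expressed inhibitor of differentiation related to Notch ligands, was barely detected. It measured 0.496, 0.481 and 0.306 FPKM in PBS and 0.309, 0.193 and 0.253 FPKM in LLC, on 29 to 79 read ends per library. This was under the filter of 1 FPKM, and a fit without the filter gave a difference of -0.19 (SE 0.07) on log2(FPKM + 1), a scale that understates changes of low genes. The highest LLC library (0.309 FPKM) lay just above the lowest PBS library (0.306 FPKM), so the Dlk1 groups overlapped.

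Peg3 and Mest, paternally expressed genes, also had overlapping groups. Peg3, a zinc-finger protein linked to muscle stem cells and to p53-related cell death, measured 6.31, 3.60 and 2.15 FPKM in PBS and 5.98, 5.23 and 7.94 FPKM in LLC. Its log2 difference of 0.62 (SE 0.33) was the third largest among the members, and PBS 1 lay inside the LLC range. Without PBS 1 and LLC 3 the Peg3 groups did not overlap and the difference was 0.79. Peg3os, an antisense transcript within the Peg3 gene chosen after its values were seen, measured 11.0, 5.87 and 3.37 FPKM in PBS and 9.02, 8.62 and 10.8 FPKM in LLC. Peg3 and Peg3os overlap, and reads of the one cannot be told from those of the other. Mest, an enzyme of the alpha/beta-hydrolase fold, measured 4.81, 4.61 and 3.49 FPKM in PBS and 4.27, 3.76 and 4.08 FPKM in LLC, with a difference of -0.07 (SE 0.14). The Mest row shares its 3' end with Copg2 on the other strand.

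Across the members, 3 of 10 had all LLC libraries above all PBS libraries (H19, Mir675 and Igf2), 0 had them below, and 7 overlapped. Over all genes tested, 9.5% had LLC above and 3.94% had LLC below in the same sense. As the 3 include a window nested in H19, they are 2 separate transcription units of 1 domain. Of the 9 members tested, 7 were above 0 and 2 below, with a median log2 difference of 0.21 against 0.01 over all genes. Without PBS 1 and LLC 3, 4 of 10 had LLC above (Peg3 joined), against 18.5% of all genes, and 0 had LLC below, against 31.2%. The members were listed with these results known, so nothing follows from these counts about imprinted genes in general.

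**Figure D2:**
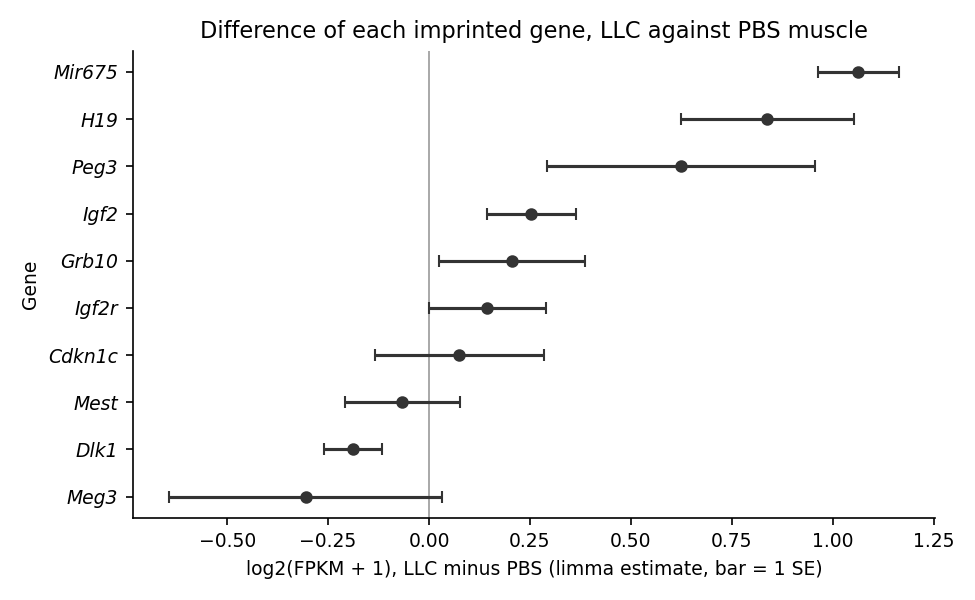
LLC minus PBS difference on log2(FPKM + 1) for each gene, with bars of 1 SE from limma (Dlk1 from the fit without a filter). Mir675 at 1.06 and H19 at 0.84 are farthest from 0, and Meg3 and Peg3 have the widest bars.

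Levels ordered in PBS from H19 through Mir675, Meg3, Cdkn1c, Grb10, Igf2r, Igf2, Mest and Peg3 down to Dlk1. Ranges over the 3 PBS libraries overlapped for the neighbours Meg3 and Cdkn1c, Cdkn1c and Grb10, Grb10 and Igf2r, and Mest and Peg3. The other neighbours in that order did not overlap.

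Many members shared an order of the libraries within the PBS group. Of the 10, 8 were lowest in PBS 3 (Igf2, Mir675, Igf2r, Dlk1, Meg3, Grb10, Peg3 and Mest), against 31.7% of all genes tested. Likewise 8 of the 10 were highest in PBS 1 among the PBS libraries, against 26.1% of all genes. Mir675 is in both counts, though its PBS values (48.2, 47.4 and 47.3 FPKM) differed by less than counting error. Dlk1 is also in both but was not among the genes tested. PBS 3 had the highest neutrophil-precursor sum of the series (11728 FPKM) and the lowest skeletal muscle sum (36195 FPKM). The part of these transcripts in the members' levels was not tested. H19 and Cdkn1c were the members not lowest in PBS 3.

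**Figure D3:**
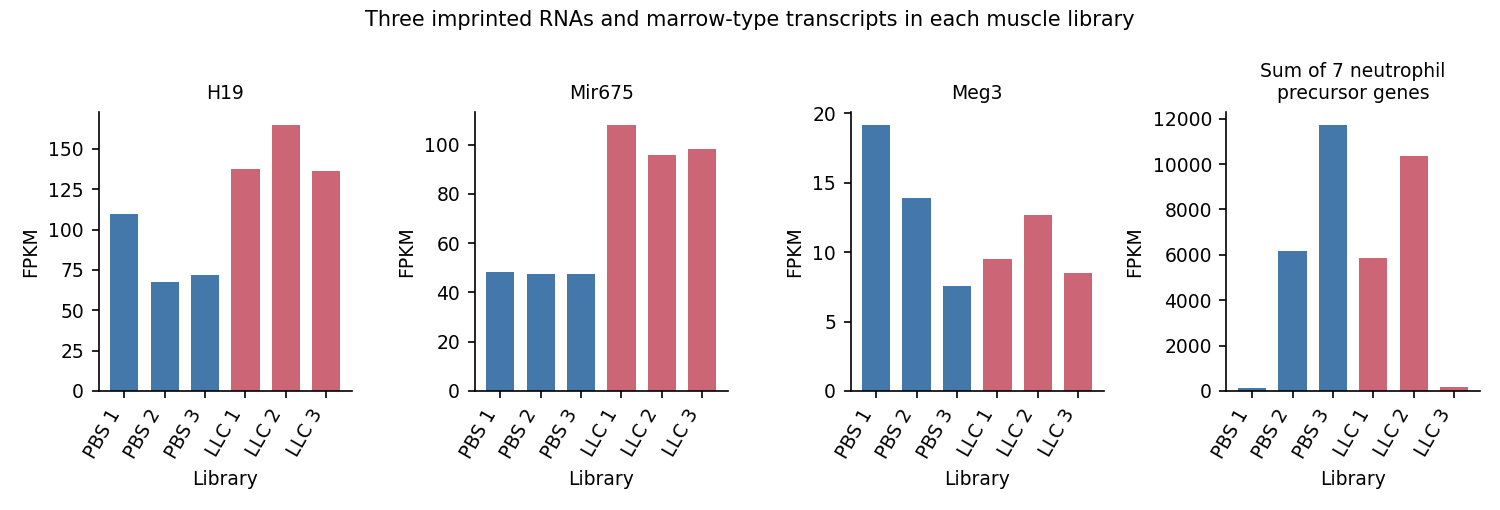
FPKM of H19, Mir675 and Meg3 and the summed FPKM of 7 neutrophil-precursor genes in each muscle library (blue PBS, red LLC; 1 bar per library, axes from 0). Neutrophil-precursor transcripts are low in PBS 1 (122 FPKM) and LLC 3 (181 FPKM), while H19 and Mir675 are high in all 3 LLC libraries.

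Other imprinted genes did not share one direction. Of 46 listed, 44 were in the table and 24 were tested. Of these, 11 were above 0 and 13 below, with a median of -0.03, and 0 were called. Snrpn and Snurf, both below 0, share the same span on chromosome 7, so the 24 are not all separate units. In 2 of the 24 all LLC libraries lay above all PBS libraries (9.5% of all genes tested), and in 2 below (3.94%). Among the most abundant, Gnas, the stimulatory G-protein subunit, averaged 643 ± 25.2 FPKM in PBS and 608 ± 11.6 in LLC (SD, n = 3). Dcn, a collagen-binding proteoglycan of fibroblasts, averaged 562 ± 203 and 449.7 ± 77.0 FPKM, and Cd81, a tetraspanin, 58.2 ± 3.36 and 61.5 ± 5.89 FPKM. Zrsr1, a splicing-factor gene, measured 3.09, 5.29 and 5.15 FPKM in PBS and 5.63, 5.90 and 7.18 FPKM in LLC, without overlap. The other gene with all LLC libraries above was Peg13, a non-coding RNA, at 8.86 ± 0.664 and 10.2 ± 0.702 FPKM (SD, n = 3), and the pair with all LLC libraries below was Gnas and Trappc9, the host gene of Peg13. Peg13 and Trappc9 were named after their values were seen, and Peg13 lies within Trappc9.

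IGF pathway genes, from ligands to binding proteins, held members on either side of 0. Of 16 listed, 13 were tested, 9 were above 0 and 4 below (6875 and 6106 of the 12981 genes tested), the median was 0.25 against 0.01 over all genes, and 0 were called. In 3 of the 13 all LLC libraries lay above all PBS libraries (9.5% of all genes), and in 0 below (3.94%). Igfbp7, a secreted binding protein of vessel walls, measured 109, 131 and 101 FPKM in PBS and 221, 234 and 251 FPKM in LLC. Its groups were far apart, with a mean ratio of 2.07. Of 6 endothelial genes, 4 had all LLC libraries above (9.5% of all genes) and 0 were called, while Kdr averaged 11.5 FPKM in PBS and 9.78 in LLC and Emcn 14.3 and 14.6. They had a summed level of 90.03 to 111 FPKM in PBS and 184 to 226 FPKM in LLC, and their part in the Igfbp7 level was not tested. Igfbp5, the most abundant IGF-binding protein of muscle here in PBS, measured 162, 142 and 97.6 FPKM in PBS and 116, 64.4 and 85.8 FPKM in LLC, and Igfbp4 averaged 81.3 ± 28.8 and 83.0 ± 11.6 FPKM (SD, n = 3). Igfbp2 was low, at 0.541, 0.943 and 2.87 FPKM in PBS and 6.08, 1.94 and 2.08 FPKM in LLC, with 1 LLC library well above the rest. The other 2 without overlap, named after their values were seen, were Irs2, a docking protein of insulin and IGF1 receptors, at 3.43, 4.40 and 3.94 FPKM in PBS and 4.92, 5.71 and 6.19 FPKM in LLC, and Stc2, an inhibitor of IGF-binding protein cleavage, at 0.84, 1.21 and 0.969 FPKM in PBS and 1.74, 1.37 and 1.73 FPKM in LLC.

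Regulators of imprinting and of Igf2 RNA held genes on either side of 0, with 0 called. Of 15 genes that set, keep or erase imprints, 9 were tested, 2 were above 0 and 7 below, and the median was -0.17. Over all genes tested, 6875 of 12981 were above 0. The list includes the Tet genes, which remove DNA methylation, and Tet2 (0.14) and Tet3 (-0.17) were among those tested. Tet1, under the filter of 1 FPKM, measured 0.488, 0.376 and 0.344 FPKM in PBS and 0.24, 0.155 and 0.193 FPKM in LLC. All LLC libraries of Tet1 lay below all its PBS libraries. Dnmt3a, a de novo DNA methyltransferase, measured 7.31, 8.16 and 8.47 FPKM in PBS and 6.43, 6.47 and 5.40 FPKM in LLC, all LLC libraries below. Zfp445, a zinc-finger protein that protects imprints, measured 12.4, 12.5 and 11.6 FPKM in PBS and 13.9, 13.3 and 16.3 FPKM in LLC, all LLC libraries above. Uhrf1, which recruits DNMT1 in dividing cells, measured 0.47, 19.7 and 29.4 FPKM in PBS and 5.18, 11.0 and 1.04 FPKM in LLC. Within each group these values had the order of the neutrophil-precursor sum, whose part in them was not tested. Ctcf, the insulator protein bound between Igf2 and H19 on the maternal copy, averaged 20.8 ± 6.92 and 18.2 ± 1.53 FPKM, and Trim28, the corepressor of imprint-keeping zinc-finger proteins, 28.7 ± 11.0 and 23.9 ± 4.47 FPKM. Of 9 genes that bind Igf2 RNA or belong to the let-7 axis, 4 were tested and all 4 were below 0, with a median of -0.10, and groups that overlapped. Hmga1, a chromatin protein, averaged 28.4 ± 10.2 and 24.995 ± 4.47 FPKM, and the RNA-binding proteins Khsrp and Elavl1 averaged 13.7 ± 5.62 and 10.9 ± 2.05 FPKM, and 7.49 ± 2.06 and 7.06 ± 1.21 FPKM (SD, n = 3). All 3 Igf2bp genes were under 1 FPKM in every library, and Igf2bp2 averaged 0.553 FPKM in PBS and 0.686 FPKM in LLC. Zfp57, another zinc-finger protein that keeps imprints, was also under the filter, at 0.811, 0.805 and 0.237 FPKM in PBS and 0.95, 1.66 and 1.02 FPKM in LLC. Tet1, Igf2bp2 and Zfp57 were named after their values were seen.

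Marker genes of the cell types that muscle tissue can hold were read beside the members. Relative to PBS, the median log2 difference was -1.95 over 6 tenocyte genes tested, -1.61 over 6 erythroid, -0.82 over 7 osteoblast and -0.38 over 10 fibroblast genes. It was 3.64 over 6 epidermal, 0.84 over 6 endothelial, 0.18 over 5 genes of satellite cells and new fibres, 0.16 over 8 skeletal muscle, 0.05 over 7 neutrophil-precursor and -0.02 over 8 adipocyte genes. In these lists 0 genes were called. Fibroblasts and satellite cells are among the cells that express H19 and Igf2. Fibroblast genes summed to 1090 to 1815 FPKM in PBS and 761 to 1059 FPKM in LLC, and genes of satellite cells and new fibres to 31.4 to 43.7 and 38.4 to 41.6 FPKM. The genes of that list did not share a direction. Pax7, which marks satellite cells, measured 0.264 to 0.655 FPKM in PBS and 0.494 to 0.818 FPKM in LLC. Myf5, an early myogenic factor, measured 0.508 to 0.566 and 0.659 to 1.32 FPKM, and Chrna1, a subunit of the muscle acetylcholine receptor, 2.10 to 3.48 and 3.97 to 6.19 FPKM, each with all LLC libraries above. Myod1, the myogenic determination factor, measured 7.91 to 12.8 and 4.80 to 7.72 FPKM, with all LLC libraries below. The part of these cells in the H19 and Igf2 levels was not tested.

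In the myotubes, 12 peaks were named for 5 members: 2 for H19, 5 for Igf2r, 2 for Dlk1, 2 for Grb10 and 1 for Peg3. None carried the name of Mir675, Igf2, Meg3, Cdkn1c or Mest. Only 1 of the 12 was annotated as promoter, with 6 in introns and 5 intergenic, while 20.4% of all peaks were promoter peaks and 36.3% intronic. The authors' peak lists of all 6 libraries held 7 of the 12, against 60.1% of all peaks. Peaks within 1000 bp of a start were present for 4 of 11 genes of satellite cells and new fibres (Myod1, Chrna1, Chrng and Ncam1), 1 of 8 mature muscle genes (Tnnt3), 2 of 7 neutrophil-precursor genes (Camp and S100a8), 1 of 6 endothelial genes (Tek) and 0 of 6 epidermal genes. Over all 20194 genes of the RNA table the share was 49.95%, so these peaks do not set the muscle lists apart.

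The share of tags that lay in peaks differed between libraries. It was 27.0%, 13.1% and 17.9% in control 1 to 3 and 12.0% to 13.5% in the C26 libraries. Control 1 and control 3 lay above all C26 libraries and control 2 lay inside their range. Whether C26 medium changed this share was not tested. The deposited values (tags per peak at 10000000 tags a library) had a median log2 difference of -0.54 between C26 and control over all peaks, and control 1 was the highest library for 12 of the 12 member peaks, against 89.5% of all peaks. Values were also scaled by the median of ratios over peaks, which brought the median to -0.02. Such scaling also removes any change shared by most peaks. As deposited, 11 of 12 member peaks were below 0 with a median of -0.48, and limma called 0 of 12, against 3.03% of all peaks (1.15% higher and 1.88% lower). At an unadjusted p under 0.05, 11049 of the 37358 peaks tested passed, 1 of them a member peak, that of Peg3. After scaling, 7 of 12 were above 0 and 5 below with a median of 0.03, and 2 of 12 were called, 1 higher against 17% of all peaks and 1 lower against 12.7%, or 29.8% in both directions. Both edgeR and DESeq2 on recovered reads also called 2 member peaks.

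Both H19 peaks were weak and did not separate the groups after scaling. The promoter peak, 214 bp upstream of H19 (chr7:142578156-142578565), held 18.3, 12.8 and 13.3 tags in control 1 to 3 and 9.36, 10.1 and 12.4 tags in C26 1 to 3. All C26 values were below all control values as deposited, with a difference of -0.44 (SE 0.44), but the scaled difference was 0.05 (SE 0.27). A further peak, 2406 bp upstream (chr7:142580280-142580824), held 21, 11.8 and 15.8 tags in control and 12.5, 9.37 and 8.24 in C26. It was on the peak lists of all 3 control libraries and of 0 C26 libraries, yet the scaled difference was -0.13 (SE 0.27) and the groups overlapped. The H19 imprinting control region lies upstream of H19, and whether this peak falls inside it was not determined.

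Peg3 had the strongest member peak, 2154 bp inside the gene in intron 1 (chr7:6727584-6728946). It held 143, 66.5 and 91.0 tags in control and 48.4, 53.1 and 45.6 tags in C26, so every C26 library was below every control library. The means were 100 ± 38.8 and 49.0 ± 3.79 tags (SD, n = 3), with a difference of -0.95 (SE 0.36) and a limma adjusted p of 0.0979. Scaling brought the control libraries together, at 78.9, 78.0 and 78.1 against 57.5, 67.6 and 51.2 in C26, or 78.4 ± 0.49 and 58.8 ± 8.31 (SD, n = 3). The control values rested on 319, 197 and 184 read ends. Poisson counting of such numbers alone gives a wider spread, so the control SD understates the error. The scaled signal was lower in C26 by a log2 difference of -0.42 (SE 0.11), with a limma adjusted p of 0.00306, in 3 of 3 C26 libraries. The promoter window shown above lies 1424 bp from this peak. In the muscle of LLC mice, another tumour and tissue, the mean of Peg3 RNA was higher and the groups overlapped.

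Igf2r was named for 5 peaks, all within the span of Airn, of which 3 lay upstream of the Igf2r start. The farthest, 35298 bp upstream of Igf2r in intron 2 of Airn (chr17:12804635-12805374), held 39.3, 21.3 and 26.7 tags in control and 28.1, 33.0 and 37.6 tags in C26. This was the 1 member peak with a positive difference as deposited, 0.21 (SE 0.40). After scaling it held 21.8, 24.9 and 22.9 in control and 33.4, 42.0 and 42.2 in C26, without overlap, with means of 23.2 ± 1.60 and 39.2 ± 5.02 (SD, n = 3). The scaled difference was 0.73 (SE 0.16), with a limma adjusted p of 0.00052, and it was higher in 3 of 3 C26 libraries. The peak 13507 bp upstream (chr17:12782940-12783487) was the second strongest of the members, with 108, 39.8 and 59.8 tags in control and 42.1, 37.8 and 44.0 tags in C26, and control 2 lay inside the C26 range. It and the peak 21979 bp upstream (chr17:12791478-12791892) gave scaled differences of -0.09 (SE 0.12) and 0.13 (SE 0.16). Those 9840 bp (chr17:12759643-12760090) and 11537 bp (chr17:12758037-12758302) inside intron 1 of Igf2r gave -0.19 (SE 0.20) and 0.10 (SE 0.26). After scaling 1 of the 5 passed, against 29.8% of all peaks, and differences between the 5 were not tested.

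Dlk1 and Grb10 had intergenic peaks alone. The Dlk1 peak 11304 bp upstream (chr12:109441362-109441677) held 33.1, 17.6 and 20.8 tags in control and 16.0, 12.2 and 11.3 tags in C26, all C26 values below, but after scaling the groups overlapped with a difference of -0.27 (SE 0.23). The Dlk1 peak 34749 bp upstream (chr12:109417759-109418389) held 60.3, 27.0 and 31.6 tags in control and 28.5, 22.2 and 27.5 in C26 and had a scaled difference of 0.01 (SE 0.16), and the Grb10 peaks 35133 bp (chr11:12072402-12072705) and 38201 bp (chr11:12075498-12075745) upstream had 0.11 (SE 0.21) and 0.05 (SE 0.28). In all, 9 of the 12 peaks lay over 5000 bp from the start of the gene whose name they carry, so the naming is by proximity only.

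As deposited, 3 of the 12 peaks had all C26 libraries below all control libraries, against 34% of all peaks, and 0 had them above, against 3.24%. After scaling, 1 had C26 below (Peg3), against 19.4% of all peaks, and 1 had C26 above (the farthest Igf2r peak), against 21.7%.

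**Figure D4:**
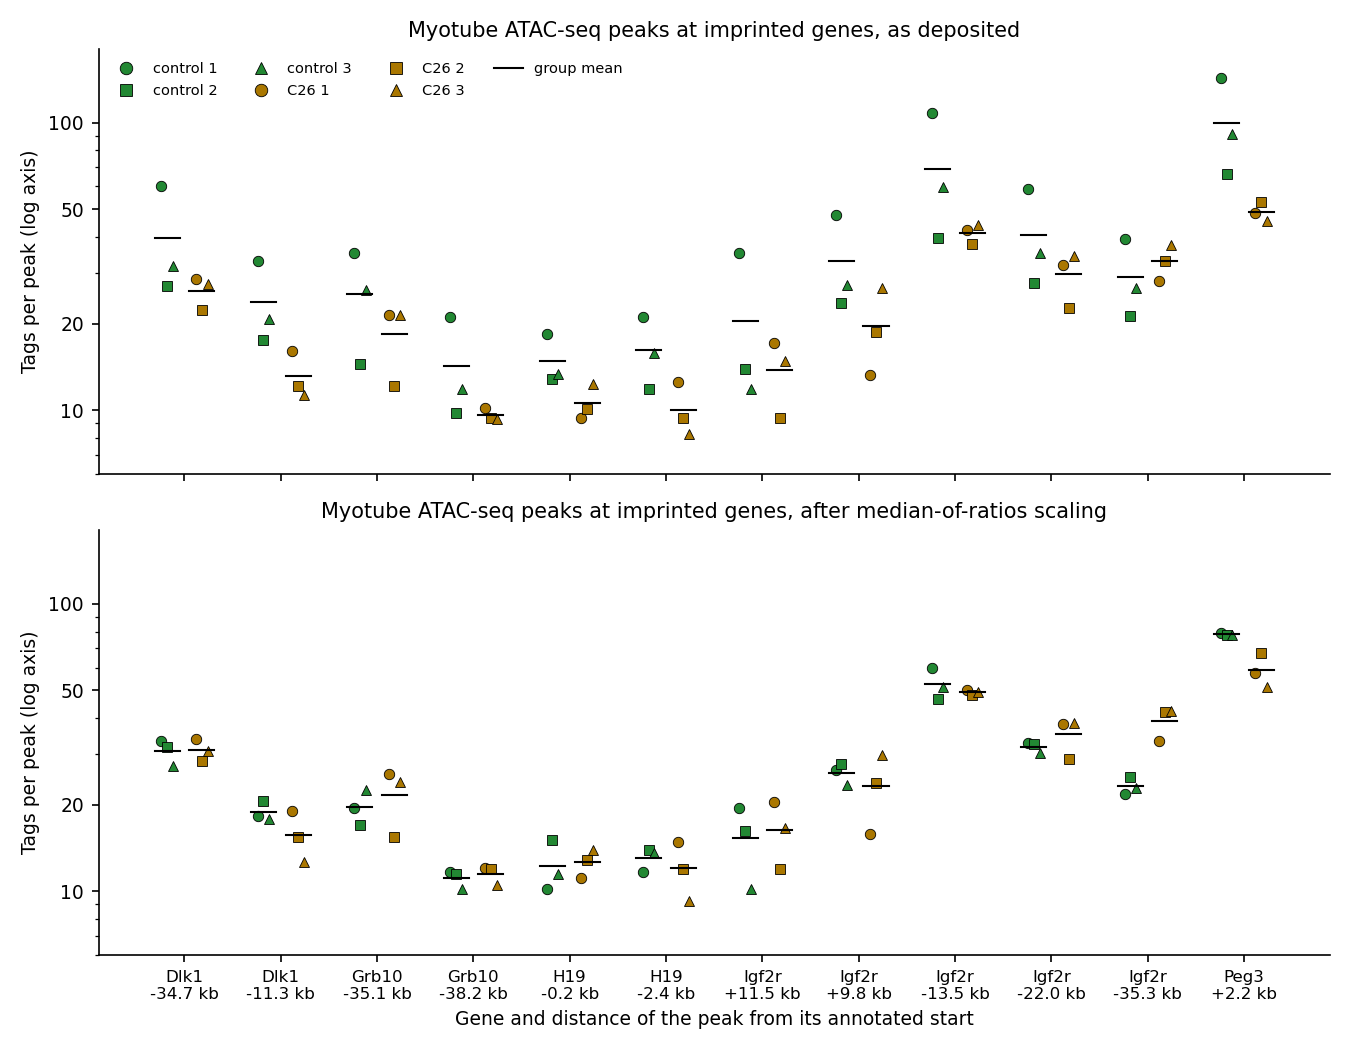
Tags per peak (log axis) of the 12 peaks named for imprinted genes, as deposited (top) and after median-of-ratios scaling (bottom); points are libraries, lines are group means. Control 1 is the highest library in every peak at the top, while at the bottom only Peg3 and the Igf2r peak 35298 bp upstream separate the groups.

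**Figure D5:**
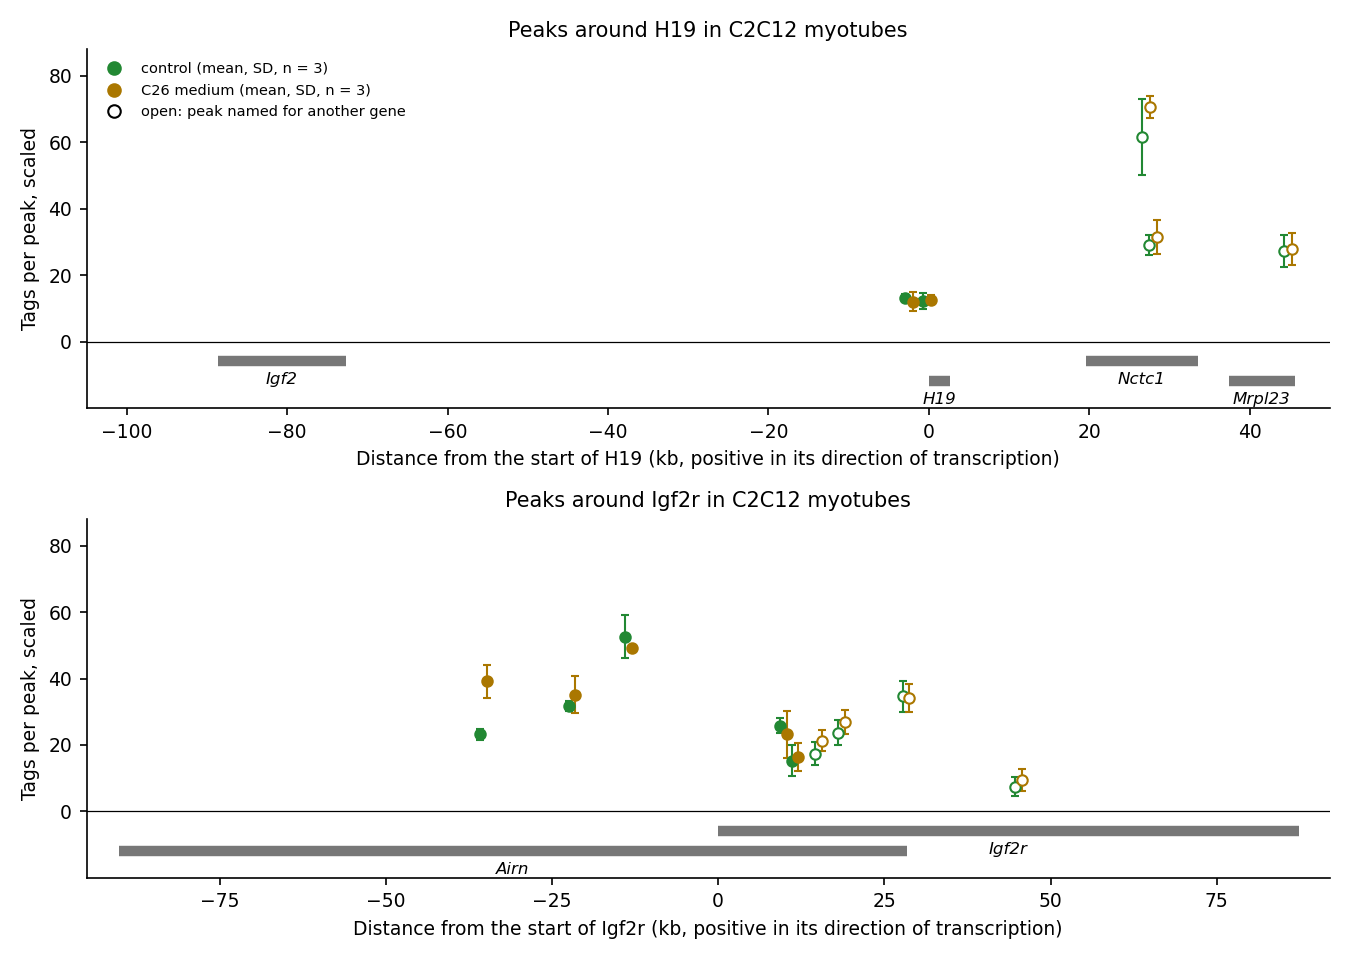
Scaled tags per peak (mean and SD, n = 3) against distance from the H19 start (top) and the Igf2r start (bottom), with gene bodies in grey below; filled points are peaks named for H19 or Igf2r, open points those named for another gene. The farthest Igf2r peak is at 23.2 in control and 39.2 in C26, and no peak lies over Igf2.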

How the data were processed

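RNA values are FPKM that the authors made with HOMER in mm10, per the file headers, from RefSeq exons counting both strands and keeping 1 transcript per gene. ATAC values are a normalised signal, tags per peak scaled by the authors to 10000000 tags a library with HOMER, per the file headers. The submitters' processing notes name HISAT2, HOMER, DESeq2, Bowtie2, MACS2, GRCm38 and mm10, without roles or versions (not given in the sources used here). From these values, limma 3.58.1 with trend (R 4.3.3) was fitted on log2(value + 1) over the 12981 genes averaging 1 FPKM or more and the 37358 peaks averaging 5 tags or more, two-sided, with Benjamini-Hochberg adjustment at 0.05. Whole read ends were recovered from the value steps (100% within a tolerance of 0.1) for edgeR 4.0.16 and DESeq2 1.42.0. Fits were tested on simulated data. 0 pairs of libraries held identical values. The alternatives were other pseudocounts, filters, scalings, the replicate block, leaving out each library, and leaving out PBS 1 and LLC 3 together.

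Members and lists were chosen with earlier results of these data known. Named were all members and their peaks and, in other lists, the 3 most abundant genes and the 2 with the largest differences. Marker lists are given by their sums, counts and medians, with a few of their genes named as well. Of the marker genes given with FPKM, Pax7, Myf5, Kdr and Emcn were named outside that rule. In the other lists Dio3, Mirg, Rtl1, Tet1, Tet2 and Tet3 were also named outside it. Igf2os, Airn as a neighbour, Peg3os and peaks of neighbouring genes were chosen after their values were seen. RefSeq promoters of H19 and Cdkn1c were not used here. No genome of this build was used here, so no peak sequence is printed.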

Additional observations from a re-analysis of the deposited data

How the results depend on the processing

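For RNA, 0 genes passed as fitted. A mean of at least 5 FPKM, median-of-ratios scaling and quantile normalization gave 1 each, and DESeq2 on recovered reads, chosen after seeing the data, gave 312. H19, Mir675, Igf2 and Peg3 kept a positive difference in 23 of 23 alternatives, with ranges of 0.61 to 1.13, 0.96 to 1.15, 0.13 to 0.32 and 0.25 to 0.999. Mir675 was past the threshold in 1 of them, DESeq2, on the same values that the list was selected on, so this is no test of it. Igf2r and Grb10 kept their sign in 22 of 23, Meg3 in 21, Cdkn1c in 18 and Mest in 20 of 22. For ATAC, 1132 peaks passed as deposited (428 higher, 704 lower), 471 with a mean of at least 20, 11121 after median-of-ratios scaling (6368 higher, 4753 lower), 11014 after quantile normalization, 11354 in edgeR and 7531 in DESeq2. Leaving out 1 library gave 123 to 20607 as deposited (20607 without control 2, 4565 without control 1) and 8638 to 9670 after scaling (9475, 9477 and 8638 without control 1 to 3, 9670, 9503 and 8689 without C26 1 to 3), the latter added after seeing the data. Member peaks that passed numbered 0 as deposited, 1 without control 1, 4 without control 2, and 2 under median-of-ratios scaling, quantile normalization, edgeR and DESeq2 and in each scaled fit without 1 library; leaving out 1 library gave 0 to 4. The cause was not tested. Correlations of deviations between same-numbered libraries had no common sign (-0.09, 0.60 and -0.60 in RNA and -0.01, 0.01 and -0.02 in ATAC). The numbers are therefore not taken as pairs. The replicate block gave 0 genes and 1071 peaks, and with median-of-ratios scaling 10974 peaks and 2 member peaks. Depth limits Dlk1 (29 to 79 read ends), Mir675 and the H19 peaks (24 to 47 read ends).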

Other observations

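The genes whose profile over the 6 muscle libraries lay nearest to H19, by the largest gap between mean-centred log2(FPKM + 1) values, were Ly6c1 (gap 0.10), Gm5091 (0.20) and Cyb561 (0.24). Ly6c1, a surface protein of monocytes and endothelium, measured 115, 75.8 and 78.5 FPKM in PBS and 144, 182 and 160 FPKM in LLC, so PBS 1 was the highest of its PBS group as for H19. Nearest to Igf2 were Anxa4 (0.05), Map10 (0.05) and Rbms1 (0.06). Anxa4, a calcium-dependent phospholipid-binding protein, measured 9.86, 10.2 and 8.94 FPKM in PBS and 12.1, 11.7 and 11.2 FPKM in LLC. A small gap is a description over 6 libraries.

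Downstream of H19, in the stretch that holds muscle enhancers of this domain, a non-coding RNA and its peaks were chosen after their values were seen. Nctc1 measured 27.4, 26.2 and 20.5 FPKM in PBS muscle and 28.2, 30.3 and 26.2 FPKM in LLC muscle, with overlapping groups. In myotubes the stronger of its intronic peaks (chr7:142550863-142551344) held 116, 60.8 and 56.9 tags in control and 60.5, 52.4 and 65.1 tags in C26, several times the signal of either H19 peak, with a scaled difference of 0.21 (SE 0.12). Farther downstream, a peak 985 bp upstream of Tnnt3, a fast troponin T gene (chr7:142497644-142498059), held 29.9, 18.2 and 24.7 tags in control and 6.63, 11.1 and 10.4 tags in C26. It was on the lists of 3 control and 0 C26 libraries, and its scaled difference was -0.78 (SE 0.25; limma adjusted p 0.0154), where 29.8% of all peaks passed. The other Tnnt3 promoter peak, 31 bp from the start, was on the lists of 2 control and 2 C26 libraries and had a scaled difference of 0.26 (SE 0.25), in the other direction. At the Airn start inside Igf2r, the control element of that domain, the peak (chr17:12741146-12741784) had a scaled difference of -0.02 (SE 0.15).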
